A study of Mus musculus with 18 samples.

Results

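Kupffer cell markers are genes that the resident macrophages of the liver transcribe and hepatocytes are not known for. The markers described here were a named set of 10 genes: Cd163, Vsig4, Marco, Clec4f, Cd5l, C1qa, C1qb, C1qc, Csf1r and Cd68. All 10 were on the array, and they were 10 of the 18193 genes measured. They were read by 15 of 45037 probe sets, with 3 probe sets each for C1qb and Csf1r, 2 for Marco and 1 for each other gene. Where a gene had several, the one with the highest mean over all arrays gives its main value.

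The 18 arrays, 1-colour Affymetrix arrays, came from primary hepatocytes of male C57BL/6N mice aged 8 to 12 weeks. IL-6 plus HGF was measured at 5, 6, 7, 8, 9, 10, 12 and 24 h, IL-6 alone at 1, 2, 3 and 4 h, and the unstimulated control at 0, 4, 8, 12 and 24 h and at -5 h. IL-6, the cytokine that drives the acute phase response of hepatocytes, was given at 40 ng/ml from 0 h, and HGF, a mitogen of hepatocytes, joined it at 40 ng/ml from 4 h. Each hour of each condition was 1 array, so hours stand in for replicates, and nothing in the labels says whether the dishes came from separate animals. All groups from 0 h on shared the same culture history up to the stimulus. Each experiment took its cells from 1 mouse or from up to 3 pooled mice, which were plated on collagen I in serum-containing medium with insulin and 100 nM dexamethasone. After 4 h of attachment they were washed and kept for 24 h in serum-free medium with dexamethasone, then for 4 h in medium without it before the stimulus. The control at -5 h is therefore placed before the withdrawal of dexamethasone by inference from these times. No sort or gate was described, HGF alone was not analysed here, and there was no control at 1, 2 or 3 h.

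Kupffer cells line the liver sinusoids, where they clear particles, complement-coated microbes and haemoglobin from the blood. They depend on signals through the CSF-1 receptor, and their identity genes are known to fall when the cells leave the liver. Hepatocyte suspensions made by perfusion and filtering can carry some of them, so their transcripts can be read in a hepatocyte culture. In RNA from a whole dish, fewer cells of a type and less RNA per cell cannot be told apart.

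Upstream sequence from RefSeq, on build GRCm38.p6, was searched for 8 of the 10 genes, all except C1qa and Csf1r, over the 250 bases before the gene's start. Windows are printed for C1qb and C1qc, the pair with the highest r over the arrays (0.88) among these 8, and for Cd163 and Cd68. With C1qb, Cd163 had r of 0.54 and Cd68 of 0.31, while Cd5l, Vsig4 and Clec4f had 0.25, 0.36 and 0.39. Of these values that of Cd5l was the lowest, that of Cd68 next and that of Cd163 the highest. The printed windows are thus not all from the genes least like C1qb. C1qb, C1qc and C1qa lie next to one another on chromosome 4. Capitals mark a match to AGGAAG, a core bound by PU.1 and other ETS factors, or to TGAGTCA, the AP-1 site. Each motif was searched on both strands, so the AGGAAG core also appears as its reverse complement.
Cd163 (chr6:124304401-124304650, plus strand): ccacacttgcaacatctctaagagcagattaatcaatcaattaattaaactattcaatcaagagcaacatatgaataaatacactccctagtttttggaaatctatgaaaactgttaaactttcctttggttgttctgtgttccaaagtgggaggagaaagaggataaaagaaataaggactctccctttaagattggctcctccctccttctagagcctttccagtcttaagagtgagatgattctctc
C1qb (chr4:136886201-136886450, minus strand): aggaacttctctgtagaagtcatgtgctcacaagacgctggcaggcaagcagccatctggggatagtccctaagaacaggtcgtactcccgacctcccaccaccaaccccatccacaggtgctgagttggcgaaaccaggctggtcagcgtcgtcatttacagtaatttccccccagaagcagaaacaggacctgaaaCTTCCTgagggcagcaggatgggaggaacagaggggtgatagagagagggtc
C1qc (chr4:136892915-136893164, minus strand): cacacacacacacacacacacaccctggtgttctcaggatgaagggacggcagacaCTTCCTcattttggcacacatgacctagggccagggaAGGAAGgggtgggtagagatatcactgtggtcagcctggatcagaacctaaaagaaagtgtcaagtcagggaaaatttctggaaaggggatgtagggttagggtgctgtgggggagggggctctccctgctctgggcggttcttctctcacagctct
Cd68 (chr11:69666171-69666420, minus strand): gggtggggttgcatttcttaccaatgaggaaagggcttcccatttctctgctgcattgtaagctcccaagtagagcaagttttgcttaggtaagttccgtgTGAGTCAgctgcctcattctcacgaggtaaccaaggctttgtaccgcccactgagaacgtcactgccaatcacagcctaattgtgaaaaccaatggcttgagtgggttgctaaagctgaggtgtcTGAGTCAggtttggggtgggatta
The AGGAAG core was present in 4 of the 8 windows, those of Marco, Cd5l, C1qb and C1qc, against 29.5% of 32851 promoters of the same length. TGAGTCA was in the window of Cd68 alone, where it occurred at 2 places, and in 4.46% of all promoters. The STAT motif TTCNNNGAA, held by 7.02% of promoters, and the palindromic glucocorticoid response element, held by 0.387%, had no match in any of the 8 windows. The STAT motif can share letters with the AGGAAG core, and a match is a description of the window only.

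The deposited values are expression signals on a scale taken as log2 from their range, 2.09 to 15.05, with array medians between 5.46 and 5.56. Precision is set by how many arrays there are, and no detection call came with the values. Socs3, a direct target of IL-6 signalling, was 3.51 higher in IL-6 than in control arrays (limma adjusted p = 2.43e-05), as the stimulus labels would have it. Hepatocyte genes gave bright signals in every group, with the mean of 9 of them between 10.98 and 12.33 under IL-6 plus HGF, between 12.54 and 12.80 under IL-6 and between 11.54 and 12.83 in the controls at 0 to 24 h.

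Among the scavenger and complement receptors, Cd163 had the widest range of the 10 genes, 2.60 on the log2 scale. It was also dim, with a mean of 4.92 over the 18 arrays, at percentile 40.4 of all probe sets. That mean lay under the array medians of 5.46 to 5.56. Cd163, the receptor that takes up haptoglobin-bound haemoglobin, read 4.08 at its lowest, 4.63 at the median and 4.86 at its highest over the 8 arrays with IL-6 plus HGF. With IL-6 it read 5.36, 5.09, 4.44 and 4.61 at 1, 2, 3 and 4 h. In the controls it read 6.68, 4.94, 4.89, 4.66 and 4.99 at 0, 4, 8, 12 and 24 h, and 6.32 at -5 h. The controls at -5 and 0 h were thus the high arrays, and the later control arrays lay among the stimulated ones.

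Marco, a scavenger receptor with a collagenous stalk that binds bacteria and particles, read 6.56, 7.45 and 8.09 as lowest, median and highest under IL-6 plus HGF. Under IL-6 it read 7.98, 7.91, 7.74 and 7.75 from 1 to 4 h. The controls read 8.63, 7.98, 7.75, 7.54 and 6.44 from 0 to 24 h, and 7.33 at -5 h. The groups overlapped, and the array at 24 h was the lowest in both series. The second Marco probe set followed the first (r = 0.97 over 18 arrays).

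Vsig4, the macrophage receptor for complement C3 fragments, read 7.43, 7.66 and 8.25 as lowest, median and highest under IL-6 plus HGF. The IL-6 arrays read 7.56, 7.56, 7.32 and 7.24 from 1 to 4 h. The controls read 8.19, 7.94, 7.92, 8.10 and 8.22 from 0 to 24 h, and 7.34 at -5 h. All 4 IL-6 arrays lay under all 5 controls from 0 h on, while the array with IL-6 plus HGF at 24 h lay at the level of the highest control.

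Clec4f, a C-type lectin that marks Kupffer cells in the mouse, read 6.20, 6.58 and 6.69 as lowest, median and highest under IL-6 plus HGF, and 6.76, 6.66, 6.69 and 6.43 under IL-6 from 1 to 4 h. The controls read 7.18, 6.58, 6.73, 6.96 and 6.77 from 0 to 24 h, and 7.25 at -5 h. As for Cd163, the controls at -5 and 0 h were its highest arrays, and the other groups overlapped.

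Cd5l, a scavenger-receptor family protein that macrophages secrete, read 8.91, 9.25 and 9.66 as lowest, median and highest under IL-6 plus HGF. The IL-6 arrays read 9.06, 9.09, 8.83 and 8.85 from 1 to 4 h. The controls read 9.47, 9.31, 9.62, 9.65 and 9.41 from 0 to 24 h, and 8.47 at -5 h, the lowest of its 18 arrays. The IL-6 arrays lay below all 5 later controls, and the arrays with both stimuli ran from below the controls to their highest level.

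The chains of C1q, the protein that starts the classical complement pathway, fell into one pattern. C1qa read 6.92, 7.14 and 7.48 as lowest, median and highest under IL-6 plus HGF, and 7.47, 7.41, 7.17 and 7.26 under IL-6 from 1 to 4 h. Its controls read 8.01, 7.84, 7.40, 7.60 and 7.00 from 0 to 24 h, and 7.43 at -5 h. The controls at 0 and 4 h were its 2 highest arrays. C1qb read 7.50, 7.72 and 8.24 as lowest, median and highest under IL-6 plus HGF, and 7.92, 8.11, 7.80 and 7.95 under IL-6. Its controls read 8.61, 8.38, 8.16, 8.13 and 7.58 from 0 to 24 h, and 7.83 at -5 h. C1qc read 6.69, 6.94 and 7.32 as lowest, median and highest under IL-6 plus HGF, 6.90, 6.90, 6.78 and 6.94 under IL-6, 7.56, 7.47, 7.27, 7.27 and 6.91 in the controls from 0 to 24 h, and 6.80 at -5 h. On the main probe sets of the 3 chains the highest array was the control at 0 h. The lowest control from 0 h on was the one at 24 h, which overlapped the stimulated arrays. The other probe sets of C1qb had r of 0.81 and 0.89 with the main one. They were highest in the control at 4 h, at 7.88 and 7.47, against 7.75 and 7.29 at 0 h.

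Csf1r, the receptor for CSF-1 and IL-34 on which macrophages depend, read 7.37, 7.67 and 7.90 as lowest, median and highest under IL-6 plus HGF. The IL-6 arrays read 7.60, 7.56, 7.49 and 7.67 from 1 to 4 h. The controls read 8.11, 8.04, 7.94, 7.84 and 7.85 from 0 to 24 h, and 7.70 at -5 h. All IL-6 arrays lay below the lowest of the 5 later controls. The other 2 Csf1r probe sets followed the main one less closely, with r of 0.65 and 0.27, and on both the IL-6 arrays overlapped these controls. The gene's values thus depend on the probe set.

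Cd68, a glycoprotein of endosomes and lysosomes that is abundant in macrophages, read 7.77, 8.88 and 9.24 as lowest, median and highest under IL-6 plus HGF. Under IL-6 it read 9.04, 9.17, 9.09 and 9.15 from 1 to 4 h. The controls read 8.80, 9.41, 9.49, 9.88 and 8.24 from 0 to 24 h, and 9.50 at -5 h. Unlike the other 9 genes it was higher in the control at 12 h than in any other array, and its lowest arrays were those at 24 h in both series.

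Ordered by their means over the hours, the groups stood differently from gene to gene. These means cover unlike hours, 5 to 24 h for IL-6 plus HGF, 1 to 4 h for IL-6 and 0 to 24 h for the controls. The part of the hours in the order was not tested. Vsig4 averaged 7.68 ± 0.27 (SD, n = 8) under IL-6 plus HGF and 7.42 ± 0.16 (n = 4) under IL-6, against 8.07 ± 0.14 (n = 5) in the later controls. Csf1r averaged 7.68 ± 0.17 under IL-6 plus HGF and 7.58 ± 0.07 under IL-6, against 7.96 ± 0.12 in the controls, and C1qc averaged 6.93 ± 0.19, 6.88 ± 0.07 and 7.29 ± 0.25 in the same groups. In these 3 genes the stimulated means lay within 1 SD of each other and the control mean was the highest. Cd5l averaged 9.25 ± 0.24 under IL-6 plus HGF and 8.96 ± 0.14 under IL-6, against 9.49 ± 0.14 in the controls, so IL-6 stood lowest, apart from the controls by more than either SD. Cd163, Clec4f, C1qa and C1qb had IL-6 plus HGF lowest, IL-6 between and the control highest, with each step between neighbours smaller than the SD of the controls. For Marco the order had IL-6 at the top. It averaged 7.40 ± 0.43 under IL-6 plus HGF, 7.84 ± 0.12 under IL-6 and 7.67 ± 0.80 in the controls. Neighbours differed by less than the control's spread. At 4 h, the hour that IL-6 and the control shared, the IL-6 array of Marco differed from the control by -0.23. Cd68 averaged 8.80 ± 0.48 under IL-6 plus HGF, 9.11 ± 0.06 under IL-6 and 9.16 ± 0.65 in the controls, and no pair of neighbours differed beyond the spread.

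**Figure D1:**
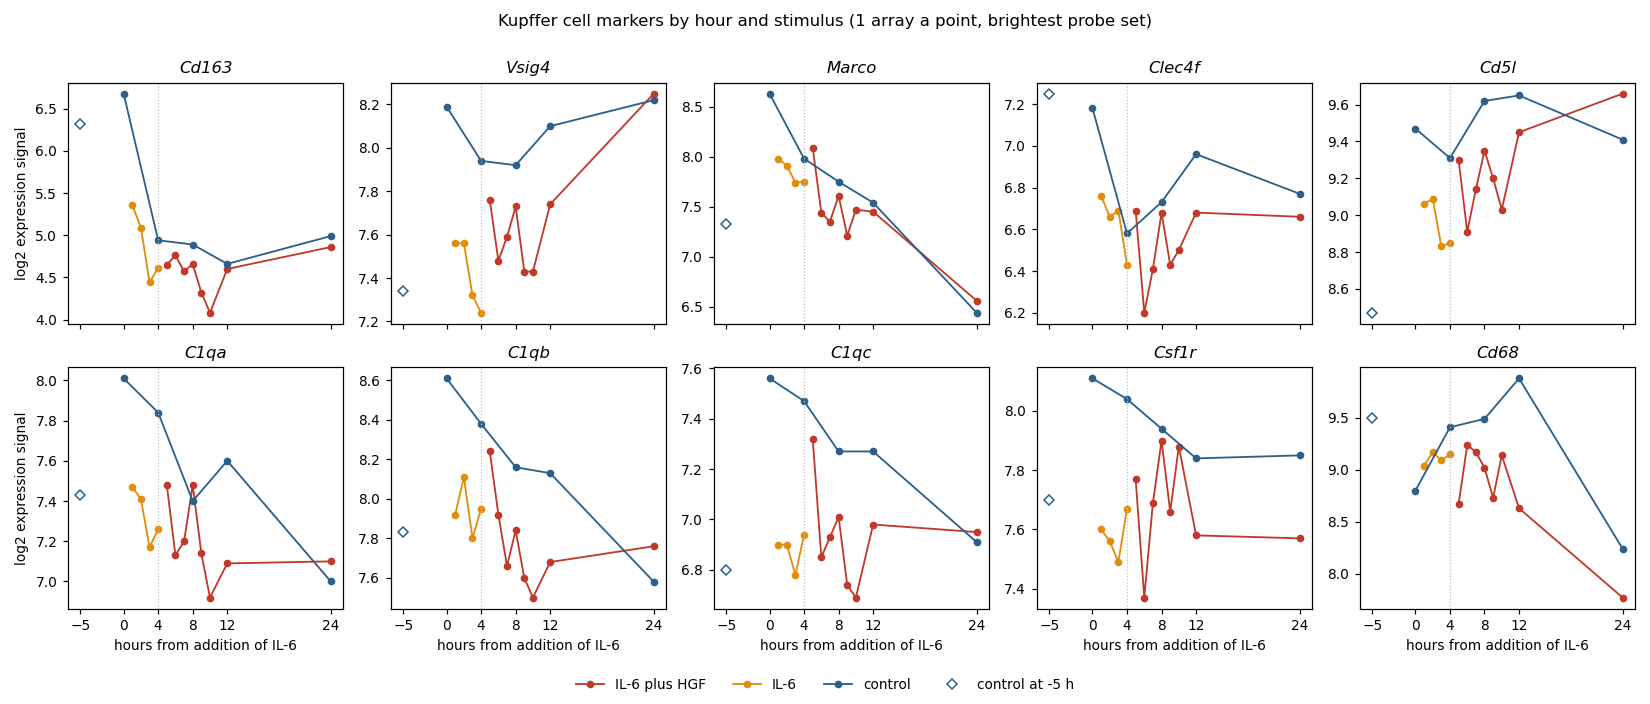
Log2 expression signal of each of the 10 Kupffer cell markers (y axis, a scale of its own per gene) against hours from the addition of IL-6 (x axis), with 1 point per array for IL-6 plus HGF (red), IL-6 (orange), the control (blue) and the control at -5 h (open diamond). The dotted line is 4 h, when HGF was added. Cd163 in the control stands at 6.68 at 0 h and 4.94 at 4 h, Marco at 24 h reaches 6.56 under IL-6 plus HGF and 6.44 in the control, and the 4 IL-6 points of Vsig4, Cd5l and Csf1r lie below all 5 later controls.

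The first comparison set the 4 IL-6 arrays against the controls at 0 and 4 h, with the spread taken from all 17 arrays from 0 h on. In this comparison 9 of the 10 markers were lower with IL-6, with a median difference of -0.52 against -0.01 over all genes, but none passed the test. The 10 differences ran between -0.94 for Cd163 and 0.01 for Cd68. Over all probe sets 0% were called lower and 0.0266% higher at an adjusted p under 0.05 in limma, so 0 called markers is no departure from the array as a whole, and 3.62% of all probe sets had an unadjusted p under 0.05.

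Vsig4 averaged 7.42 ± 0.16 with IL-6 and 8.06 ± 0.17 in the controls (SD, n = 4 and 2), which is 1.56-fold lower with a log2 difference of -0.64 (SE 0.18, unadjusted p = 0.00238, limma adjusted p = 0.988). C1qc averaged 6.88 ± 0.07 with IL-6 and 7.51 ± 0.07 in the controls, 1.55-fold lower at -0.63 (SE 0.14, limma adjusted p = 0.405). The other C1q chains differed by -0.60 (SE 0.16) for C1qa and -0.55 (SE 0.18) for C1qb, so the C1q differences were of similar size. Csf1r differed by -0.50 (SE 0.12, limma adjusted p = 0.553) on its main probe set, by -0.28 and by 0.02 on its others. Cd5l, at -0.43 (SE 0.16), and Marco, at -0.46 (SE 0.34), were lower by less than 1.4-fold.

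Without adjustment, 7 genes had p under 0.05, among them Cd163 at -0.94 (SE 0.34), but that gene's value rested on the control at 0 h. Without that array its difference was -0.07, and without the control at 4 h it was -1.81 (limma adjusted p = 0.0524). Clec4f, at -0.25 (SE 0.16), became 0.06 without the control at 0 h. Vsig4 at -0.52 and C1qc at -0.58 kept most of theirs without it.

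As a count of arrays, all 4 IL-6 arrays lay below both controls in 7 of the 10 genes, namely Vsig4, Marco, Cd5l, C1qa, C1qb, C1qc and Csf1r, and in 10 of the 15 probe sets, against 7.07% of all probe sets. No marker had all IL-6 arrays above both controls, against 6.57% of all probe sets. With the control at 0 h left out the count was 8 genes, or 11 of 15 probe sets, against 24.9% of all probe sets. With the control at 4 h left out it was 9 genes, or 14 of 15 probe sets, against 24.4%. Against all 5 controls from 0 to 24 h the count was 3, Vsig4, Cd5l and Csf1r. These were 3 of 15 probe sets, against 2.25% of all, and did not include the other Csf1r probe sets. These alternatives were chosen after the data were seen.

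The 24 other macrophage genes leaned the same way in the first 4 h, with 20 lower, a median of -0.16 and 0 called. The smallest p-values among them belonged to Tyrobp, the adaptor of activating myeloid receptors, at -0.44 (limma adjusted p = 0.676), the integrin Itgam at -0.51, the oxidase subunit Cybb at -0.54 and the lysosomal protease gene Ctss at -0.45. The 12 endothelial markers had a median of -0.07 and 0 called. The summed level of the endothelial list, as its mean relative to the control at 0 h, ran between -0.50 and -0.06 with IL-6 and between -0.39 and 0 in the later controls. That of the other macrophage genes ran between -0.21 and -0.11 with IL-6 and between -0.08 and 0.05 in the controls. The part of either list in the markers' differences was not tested.

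**Figure D2:**
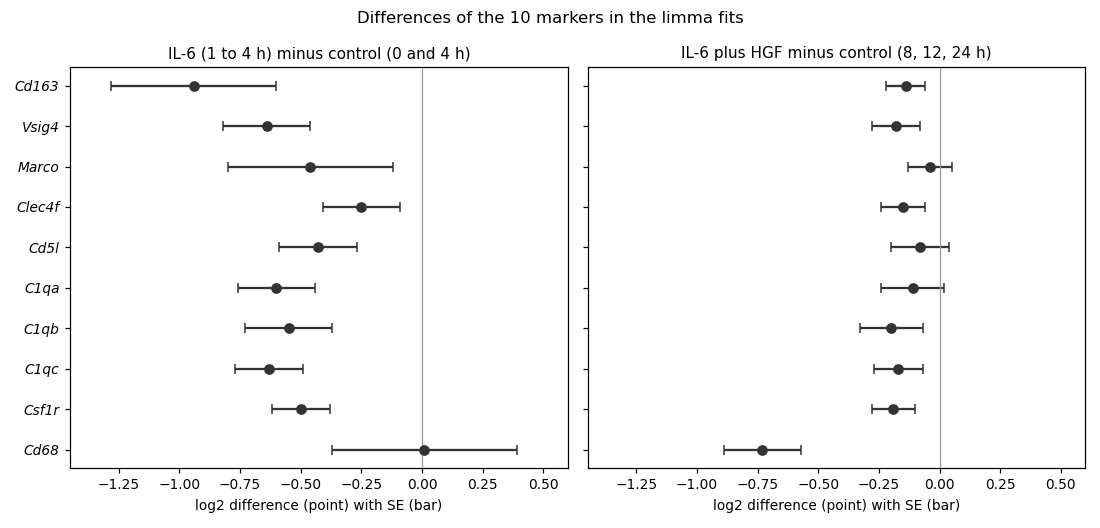
Log2 differences of the 10 markers, with points for the limma estimate and bars for 1 SE, for IL-6 minus control in the first 4 h (left) and for IL-6 plus HGF minus control at 8, 12 and 24 h (right). On the left all points except Cd68 (0.01) lie below 0, down to -0.94 for Cd163. On the right Cd68 stands at -0.73 and the other 9 genes lie between -0.20 and -0.04.

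The second comparison paired IL-6 plus HGF with the control at the shared hours 8, 12 and 24 h, with the hour as a block. All 10 differences were negative, with a median of -0.16 against 0.01 over all genes. The sign turned for 3 of the 10 under some alternatives: Marco was 0.01 after quantile normalization, 0.15 with 4 cells of 17 arrays and 0.02 without the pair at 8 h, Cd5l was 0.02 without that pair, and C1qa was 0.09 without the pair at 12 h. No marker was called, where 3.3% of all probe sets were called lower and 1.46% higher, and 20.7% had an unadjusted p under 0.05. Cd68 averaged 8.47 ± 0.64 with both stimuli and 9.20 ± 0.86 in the controls (SD over hours, n = 3 each). That is 1.66-fold lower at -0.73 (SE 0.16), with a limma adjusted p of 0.0545. The array pairs of Cd68 differed by -0.47 at 8 h, -1.25 at 12 h and -0.47 at 24 h, so the direction was the same in 3 of 3 pairs and the size was not. Cd68 was past the threshold with arrays centred on their medians (limma adjusted p = 0.035), with an intensity trend (0.0421), with 1 probe set a gene (0.0405) and in a spline of hour over 17 arrays (0.00339). It was not past it without the hour as a block (limma adjusted p = 0.602). Nor was it without the pair at 8 h (0.086), 12 h (0.086) or 24 h (0.0824), and without the pair at 12 h the difference was -0.47. The fits in which Cd68 passed also called more probe sets lower. The number was 2110 of 45037 when centred, 2292 with the trend, 3213 with the spline and 1176 of 18193 with 1 probe set a gene.

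The remaining markers differed by less than 1.2-fold in this comparison. Marco was at -0.04 on its main probe set and at -0.24 on its second (SE 0.08, limma adjusted p = 0.137). Csf1r stood at -0.19 (SE 0.09) and C1qb at -0.20 (SE 0.13), with limma adjusted p of 0.27 and 0.436. In the spline fit over 17 arrays, C1qc at -0.31 and Vsig4 at -0.28 were also past the threshold. Their limma adjusted p were 0.0468 and 0.0484, in a fit that called 3213 of 45037 probe sets lower.

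Hour by hour the markers did not stay on one side of the control. The counts here are of main probe sets. At 4 h, with IL-6 alone, 10 of 10 were below the control at a median of -0.40, where the median of all probe sets was -0.01. At 8 h 9 of 10 were below at a median of -0.22, and at 12 h 10 of 10 at -0.28, where all probe sets had medians of 0.02. At 24 h 4 of 10 were below, against 47.6% of all probe sets, and the median was 0.03. The 4 genes still below at 24 h were Cd163 at -0.14, Clec4f at -0.11, Csf1r at -0.27 and Cd68 at -0.47, and Cd5l stood 0.24 above. Marco stood at 0.12 at 24 h on its main probe set but at -0.24 on its second. That second probe set was below the control at 4, 8 and 12 h as well. A minor Csf1r probe set stood above the control at 4, 8 and 12 h, at 0.23, 0.03 and 0.05, and at -0.13 at 24 h. The other minor Csf1r probe set was at -0.40, -0.07, -0.04 and -0.04. C1qa, C1qb and C1qc differed by -0.50, -0.45 and -0.29 at 12 h and by 0.10, 0.18 and 0.04 at 24 h, and over the same interval their controls dropped by 0.60, 0.55 and 0.35 on the log2 scale. Vsig4 differed by -0.36 at 12 h and 0.03 at 24 h, with a step of 0.50 under both stimuli and of 0.12 in the control.

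Lower values at all 3 of the shared hours with both stimuli were found in 4 of the 10 genes, Cd163, Clec4f, Csf1r and Cd68, and in 6 of 15 probe sets, against 19.8% of all probe sets. Without the pair at 24 h the count was 9 of 10 genes, or 13 of 15 probe sets, against 27.8%, and C1qa, at 0.08 at 8 h, was the exception. Without the pair at 8 h or at 12 h the count was 4 genes, against 28.1% and 27.8%. With the pair at 4 h in place of that at 24 h the same 9 genes were lower at all 3 hours, against 18.9% of all probe sets. The control at 4 h also entered the first comparison, so that pair is not separate from it.

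**Figure D3:**
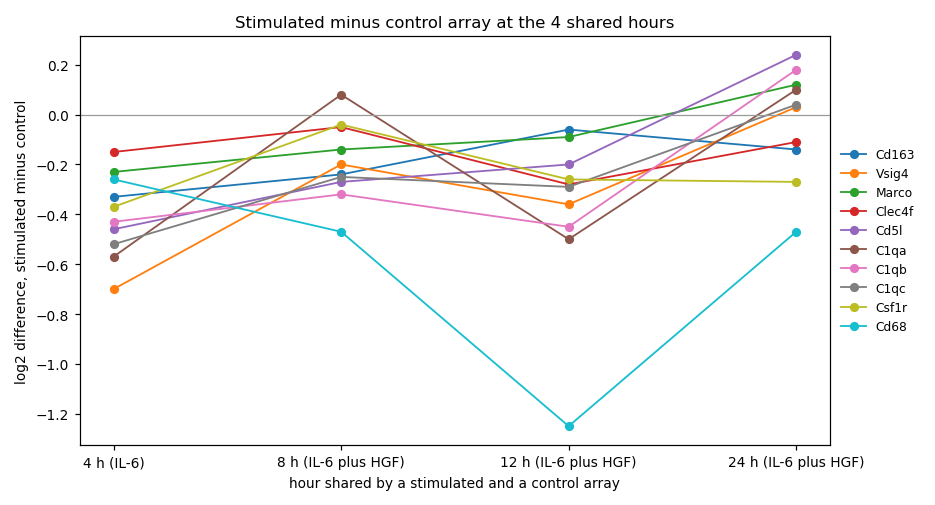
Log2 difference of the stimulated array minus the control array (y axis) at the 4 hours at which both were measured (x axis). Each line is the main probe set of 1 marker. All 10 lines lie below 0 at 4 h and at 12 h, Cd68 reaches -1.25 at 12 h, and 6 of the 10 lines lie above 0 at 24 h.

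The difference of the effects after and before HGF was tested in the fit of 17 arrays. Before HGF, this fit set IL-6 at 1 to 4 h against the controls at 0 and 4 h. After HGF, it set both stimuli at 5 to 24 h against the controls at 8, 12 and 24 h. The hours were not matched in either period, and their part in the difference was not tested. The difference was positive in 8 of 10 markers with a median of 0.33, against 0.01 over all genes. In 7 of these 8 the difference from control in this fit was negative in both periods and smaller after HGF, while that of Marco was -0.46 in the first 4 h and 0.15 after HGF. In the comparison at matched hours Marco was at -0.04. No marker was called for the change of effect, where 0.00222% of probe sets were called higher and 0.00888% lower. The smallest limma p-values were those of C1qc, at 0.42 (limma adjusted p = 0.729), and C1qa, at 0.46 (limma adjusted p = 0.753), which were the 2 markers with an unadjusted p under 0.05, against 6.37% of all probe sets. A smaller effect after HGF was therefore not established for any marker, and IL-6 alone was not measured after 4 h.

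Between the IL-6 array at 4 h and the array at 5 h, the first with HGF, 9 of 10 markers were higher, with a median step of 0.27, against 51.3% of all genes and a median of 0. The steps were 0.52 for Vsig4, 0.44 for Cd5l, 0.38 for C1qc and 0.34 for Marco, and Cd68 fell by 0.48. At the next hour, 6 h against 5 h, 2 of 10 were higher with a median of -0.37. Each step is a difference of 2 single arrays and has no replicate check.

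In unstimulated culture Marco was the marker that fell with time. Its signal fell by 0.42 per doubling of hour + 1 (SE 0.07, limma adjusted p = 0.0402), and its second probe set by 0.38 (SE 0.05, limma adjusted p = 0.0238), where 0.913% of all probe sets were called lower and 1.26% higher. No other marker passed. Counting Marco, 5 genes had an unadjusted p under 0.05 in limma, against 19.6% of all probe sets. The slopes were -0.40 for Cd163 (limma adjusted p = 0.0738), -0.20 for C1qa (0.0839), -0.20 for C1qb (0.0682) and -0.13 for C1qc (0.123). Vsig4 at 0 and Cd5l at 0.02 showed no slope that the test could tell from 0. The slope of Cd163 came from a single step, since its signal fell by 1.74 between the controls at 0 and 4 h, and without the control at 0 h the slope was 0. That of Marco was -0.66 without the control at 0 h (limma adjusted p = 0.0958), and it missed the threshold without the control at 4 h (0.0843) or at 8 h (0.0912) as well. The control at 24 h was the lowest of the 5 in 5 genes, Marco, C1qa, C1qb, C1qc and Cd68, against 32.4% of all probe sets. Against the hour itself rather than its logarithm, C1qa, C1qb and C1qc joined Marco, for 4 called genes. That fit called 618 of 45037 probe sets lower.

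With the pair of stimuli present, from 5 to 24 h, Marco again fell, by 0.52 per doubling of the hour (SE 0.11, limma adjusted p = 0.023) and by 0.57 on its second probe set (SE 0.09, limma adjusted p = 0.00759), where 2.4% of all probe sets were called lower and 3.3% higher. This fall rested on the array at 24 h: without it the slope was -0.38 with a limma adjusted p of 0.514, and without the array at 5 h it was -0.43 (0.0844). Cd68 had a slope of -0.53 (SE 0.15, limma adjusted p = 0.0703), which was past the threshold without the array at 5 h (0.0048) or at 10 h (0.0275). Vsig4 at 0.25 and Cd5l at 0.24 had positive slopes, with limma adjusted p of 0.234 and 0.201, and without the array at 24 h they were -0.05 and 0.14. These 4 genes had an unadjusted p under 0.05, against 17.1% of all probe sets. Marco was called both here and in the controls, which share no array, but the labels do not say whether the dishes came from separate animals. Each of the 2 calls was lost when certain single arrays were left out.

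The hepatocyte genes also ran downward in culture. Of the 9 measured, 8 had a negative control slope with 1 called, and 9 of 9 a negative slope under both stimuli with 5 called. Of the 12 endothelial markers 7 had a negative control slope, with a median of -0.02 and 1 called, and 10 had a negative slope under both stimuli, with a median of -0.05 and 2 called. Lyve1, the hyaluronan receptor of sinusoidal endothelium, fell by 0.50 per doubling in the controls (limma adjusted p = 0.0203) and fell by 1.28 under both stimuli (limma adjusted p = 0.00173), and Stab2, a scavenger receptor of the same cells, fell by 0.31 under both stimuli (limma adjusted p = 0.0356). Their part in the fall of Marco was not tested.

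Against the single control at -5 h, the 5 later controls differed with the smallest p-values for Cd5l and Vsig4. Cd5l averaged 9.49 ± 0.14 in the later controls against 8.47 at -5 h, 2.03-fold higher at 1.02 (SE 0.16, unadjusted p = 0.000267, limma adjusted p = 0.66). Vsig4 averaged 8.07 ± 0.14 in the later controls against 7.34 at -5 h, 1.67-fold higher at 0.74 (SE 0.15, limma adjusted p = 0.789). Cd163 had the largest difference, of the other sign, at -1.09, with an SE of 0.67 that its control at 0 h widened. None was called and 0% of all probe sets were, while 5.87% had an unadjusted p under 0.05. The array at -5 h has no replicate and was assumed to vary like the later ones.

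The array at -5 h lay below all 5 later controls for 4 genes, Vsig4, Cd5l, C1qc and Csf1r, against 16% of probe sets, and above them all for Clec4f, against 21.5%. From -5 to 0 h 8 of 10 markers were higher, with a median step of 0.67, where 48.2% of all genes were higher. Marco was 1.30 higher, Cd5l 0.99, Vsig4 0.85, C1qb 0.78 and C1qc 0.76, and Cd68 dropped by 0.70. Of the 24 other macrophage genes 16 were higher and 8 lower in the later controls than at -5 h, with a median of 0.19 and 0 called, and the smallest p-values were those of Ptprc at 1.58 (SE 0.24, limma adjusted p = 0.66) and Tyrobp at 0.68 (SE 0.13, limma adjusted p = 0.789). In the same comparison 9 of 9 glucocorticoid targets were lower in the later controls than at -5 h, with a median of -0.79, for example -0.89 for Fkbp5 and -0.78 for Tsc22d3, and 0 were called. Hour in culture and dexamethasone cannot be told apart here.

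Over the 18 arrays the closest pairs of markers were C1qa with C1qb at r of 0.91, C1qb with C1qc at 0.88, Vsig4 with Cd5l at 0.86 and C1qa with C1qc at 0.83. Cd163 with Clec4f and Marco with C1qb followed at 0.76 each, and Marco with C1qa at 0.74. With the mean of the other 9 members, r was 0.93 for C1qa, 0.87 for C1qb, 0.84 for C1qc, 0.62 for Csf1r, 0.59 for Clec4f, 0.54 for Marco, 0.49 for Cd163, 0.34 for Vsig4, 0.18 for Cd5l and 0.16 for Cd68. The 10 genes thus did not move as 1 block: Cd68 had r of -0.37 with Vsig4. These correlations are descriptions, and the arrays share hours, culture and a common normalization.

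**Figure D4:**
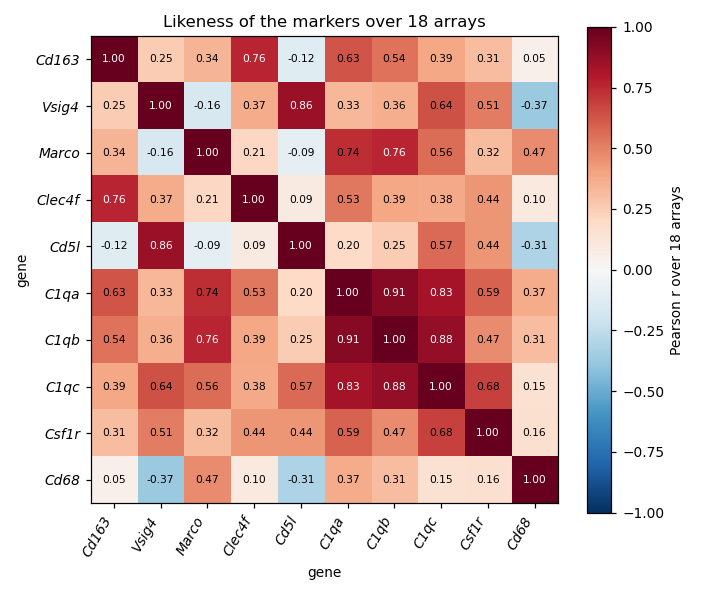
Pearson r over 18 arrays between the main probe sets of the 10 markers, from -1 (blue) to 1 (red), the value printed in each cell. The block of C1qa, C1qb and C1qc lies between 0.83 and 0.91, Vsig4 with Cd5l is at 0.86, and the row of Cd68 stays below 0.5 with every other marker.

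Outside the set, the genes whose values ran most like the mean of the 10 markers were Lrrc14 and Lipt1 at r of 0.84, Zfp672 at 0.82, Nupl2 and Lipt2 at 0.81, 9130023H24Rik, Dapk2 and Tbcc at 0.79, Mrps2 at 0.78 and Mief2 at 0.77. None of the 10 was among the other macrophage genes listed. Of the 24 other macrophage genes 4 had r above 0.5, against 5.9% of all genes, and their median r was 0.17. The endothelial list had a median of 0.42 with 4 of 12 above 0.5, and the hepatocyte list a median of 0.42 with 2 of 9. Likeness to the marker mean was thus no higher in the macrophage list than in these, though no test of that difference was run.

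The regulators of macrophage identity and survival described here were 11 genes. Csf1, the main ligand of the CSF-1 receptor, was lower at the shared hours with IL-6 plus HGF by 0.60 on the log2 scale (SE 0.09, limma adjusted p = 0.0202). Its pairs read 8.25 against 8.76 at 8 h, 8.20 against 8.68 at 12 h and 8.52 against 9.31 at 24 h, stimulated against control, so the groups did not cross at any hour. Il34, the other ligand, differed by 0.04 (SE 0.11). Cebpa, a factor that hepatocytes also express, fell by 0.69 (SE 0.10, limma adjusted p = 0.0162). Spi1, which encodes PU.1, differed by 0.02 (SE 0.09), Spic by 0.15 (SE 0.11), Nr1h3, which encodes LXR alpha, by -0.31 (SE 0.09, limma adjusted p = 0.0999), and Id3 by -0.57 (SE 0.16, limma adjusted p = 0.101). Nr1h3 fell under both stimuli from 5 to 24 h, by 0.35 per doubling of the hour (limma adjusted p = 0.00627). In the first 4 h none of the 11 was called, and Csf1 differed by -0.40 (SE 0.27).

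At the shared hours 1 of the 24 other macrophage genes was called. Slc40a1, the iron exporter ferroportin, which hepatocytes also express, fell by 0.56 (SE 0.10, limma adjusted p = 0.0256), with 10.60, 10.47 and 10.71 under IL-6 plus HGF against 11.01, 10.98 and 11.48 in the controls at 8, 12 and 24 h. The list as a whole had 13 of 24 lower and a median of -0.05. Of the 12 endothelial markers 10 were lower with a median of -0.15, and Clec4g at -0.70 (limma adjusted p = 0.0389) and Oit3 at -0.53 (limma adjusted p = 0.021) were called. Relative to the control at 0 h the endothelial mean ran between -0.70 and -0.22 under IL-6 plus HGF, against -0.39 to 0 in the later controls. The hepatocyte list had 9 of 9 lower with a median of -0.22 and 3 called. The part of these lists in the markers' values was not tested.

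**Figure D5:**
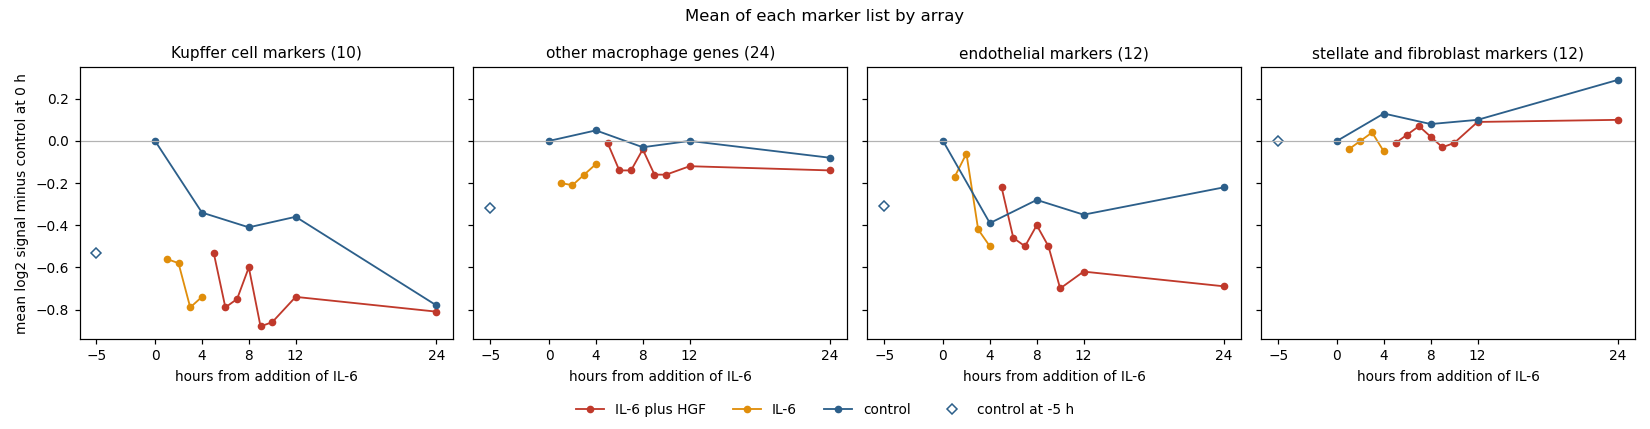
Mean log2 signal of 4 marker lists minus the control array at 0 h (y axis) against hours from the addition of IL-6 (x axis), with 1 point per array and the number of genes in brackets. The Kupffer cell markers run between -0.88 and -0.53 under IL-6 plus HGF, between -0.79 and -0.56 under IL-6 and between -0.78 and 0 in the later controls, where the control at 24 h meets the stimulated arrays. The other macrophage genes stay between -0.21 and 0.05 from 0 h on.

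As a mean over the 10 genes, relative to the control at 0 h, the markers stood at -0.53 at 5 h, -0.60 at 8 h, -0.74 at 12 h and -0.81 at 24 h under IL-6 plus HGF. Under IL-6 they stood at -0.56, -0.58, -0.79 and -0.74 from 1 to 4 h. The controls stood at -0.34, -0.41, -0.36 and -0.78 at 4, 8, 12 and 24 h, and at -0.53 at -5 h. Cd163 had the largest step from the control at 0 h to that at 4 h, -1.74, where the median step of the 10 genes was -0.2. The mean relative to 0 h thus leans on that gene. The stimulated arrays were all below the controls at 0 to 12 h, and the control at 24 h lay within their range.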

How the data were processed

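RNA of primary mouse hepatocytes was labelled with biotin and hybridised to 18 1-colour Affymetrix arrays, as the labels' protocols state. Values deposited by the authors were taken to be log2 expression signals from their range, and neither their summarization nor their normalization is given in the sources used here. Sorted values of each array differed from the mean sorted array by at most 0.118, and the values were used without further scaling. Of 45101 probe sets 64 were array controls. Of the 45037 tested, 34945 had 1 gene symbol in the platform annotation, 932 several and 9160 none, and none was filtered out.

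Groups came from the stimulus and hour in the labels. limma 3.58.1 in R 4.3.3 (lmFit, eBayes) was fitted to every probe set, with Benjamini-Hochberg adjustment and calls at an adjusted p under 0.05. The comparison of IL-6 against control and the change of effect after HGF used the means of 4 cells of 17 arrays (13 residual degrees of freedom). The cells were IL-6 at 1 to 4 h, controls at 0 and 4 h, IL-6 plus HGF at 5 to 24 h, and controls at 8, 12 and 24 h. Their hours were not matched. The matched comparison used 6 arrays with the hour as a block (2 residual degrees of freedom), the slopes 5 controls (3) and 8 arrays (6), and the comparison with -5 h 6 controls (4). A p-value therefore reflects the spread between dishes and hours, which may be technical and includes change with time. All 15 probe sets of the markers were fitted, with the brightest as the main one, and values of the others are given for some comparisons only. For the other lists up to 4 genes with the smallest p were named, beside a fixed set of regulators. Likeness was Pearson's r over 18 arrays with the mean of the 10 genes, each centred. The fits were tested on simulated data. Alternatives covered normalization, centring, a filter at the 40th percentile, the variance model, probe sets per gene, the arrays in each fit and leaving out arrays. The members and lists were chosen with earlier results of these data known. The array files name no genome build, so coordinates are given only for RefSeq windows. Figures were drawn with matplotlib 3.10.9.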

Additional observations from a re-analysis of the deposited data

Results flagged for a closer look

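Of 45 sets of arrays (15 probe sets in 3 groups), 4 had 1 array far from the rest by Dixon's criterion. The criterion flags about 1 in 20 sets of independent replicates. These sets were hours of a time course and shared their arrays, so that rate does not carry over to them. Cd163 in the control at 0 h read 6.68, and the nearest of the other controls from 0 h on read 4.99. The control at -5 h, which was outside these sets, read 6.32. Vsig4 under IL-6 plus HGF at 24 h read 8.25, with 7.76 as the nearest array. Cd68 under IL-6 plus HGF at 24 h read 7.77, with 8.63 as the nearest. One of the minor C1qb probe sets read 6.99 with IL-6 at 2 h, against 6.82 in the nearest IL-6 array. The Cd163 array decides that gene's difference with IL-6 and its control slope.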

How the results depend on the processing

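The labels carry no replicate numbers, so the pairing in the matched comparison is by hour alone. Without this block the matched difference of Cd68 stayed at -0.73 with a limma adjusted p of 0.602. For IL-6 against control, 0 markers were called under any alternative run. There Cd68 changed sign in 6 of them, at 0 when centred, -0.05 against all 5 controls, -0.04 with hour as a covariate, and within -0.29 to 0.31 without 1 array, as did Marco (0.17 against all 5 controls) and Clec4f (-0.55 to 0.06 without 1 array, positive without the control at 0 h). The count of genes with all IL-6 arrays below the controls was 3 against all 5 controls. At the matched hours the count called lower was 1 when centred, with an intensity trend or with 1 probe set a gene. It was 3 with a spline. The whole array gained calls too, from 1484 of 45037 probe sets lower in the main fit to 2110 when centred. The number was 2292 with the trend, 3213 with the spline and 1176 of 18193 with 1 probe set a gene. Marco turned to 0.01 after quantile normalization and 0.15 with 4 cells. Without 1 pair Marco ran from -0.11 to 0.02, Cd5l from -0.24 to 0.02 and C1qa from -0.21 to 0.09, and the count lower at every matched hour from 4 to 9. Without 1 array the change of effect ran from -0.22 to 1.53 for Cd163 and from -0.35 to 0.26 for Clec4f.

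For the control slope, the markers called lower numbered 4 with hour in place of its logarithm and 0 to 2 without 1 array (0 without the control at 0, 4 or 8 h, and 2, with Cd163 added, without that at 24 h), and those called higher 0 to 1 (Cd68, without that at 24 h). Of all 45037 probe sets, 618 were called lower with hour in place of its logarithm. Without the control at 0, 4 or 8 h the number was 61, 8 and 0, and without that at 24 h 269 were called lower and 276 higher. Vsig4 turned to 0.01 when centred or with hour, and Cd68 to 0.01 when centred. Without 1 array the slope ran from -0.55 to 0 for Cd163, -0.04 to 0.13 for Vsig4, -0.09 to 0.10 for Clec4f and -0.46 to 0.27 for Cd68. For the slope under both stimuli the count was 2 with 1 probe set a gene or with hour, Cd68 joining, and 0 to 2 without 1 array (0 without that at 24 h). Over the whole array, 880 of 18193 were called lower there with 1 probe set a gene and 1041 of 45037 with hour. Without the array at 10 h, where the count of markers was 2, the number was 1708, and without that at 24 h it was 108. Slopes there ran from -0.29 to 0.09 for Cd163, -0.05 to 0.37 for Vsig4, -0.27 to 0.03 for C1qc and -0.10 to 0.06 for Csf1r. The causes were not tested. No marker's difference from the control at -5 h changed side or sign. Single arrays per hour and the lack of detection calls limit all values.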
